A study of Mus musculus with 4 samples.

Results

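Histone genes encode the proteins that package DNA into nucleosomes, and 80 of the 56832 gene symbols counted in these libraries belong to them. They were taken by symbol alone, by a rule chosen with earlier results of these data known. The rule took the linker histone genes H1f with a number and the H2ac, H2bc, H3c and H4c genes. It also took H2az1, H2az2, H2ax, H3f3a, H3f3b, H3f3c, Macroh2a1, Macroh2a2 and symbols beginning with H2af, which took in the pseudogenes H2af-ps1 and H2af-ps2. The members were sorted into 62 replication-dependent cluster genes, 12 replacement genes and 6 genes of germ cells. The cluster genes include H2ac14, a pseudogene in RefSeq. RNA was sequenced from 4 libraries of mouse microglia of strain C57BL/6, labelled female, which had been grown in primary glia culture, released with trypsin and sorted by flow cytometry. These 4 libraries form 1 group, with no treatment, time point or age in the labels, and the series sets such cells beside blood progenitors and progenitor-glia co-cultures that are not analysed here. The labels do not tell whether each library had a culture or animal of its own. SDs and p-values therefore measure only how these libraries varied, which may be technical.

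Replication-dependent histones are made in S phase, when new DNA has to be packaged. Their genes lie in clusters and lack introns, and most of their transcripts end in a conserved stem-loop in place of a poly(A) tail; the stem-loop is bound by the protein Slbp. Replacement variants are made throughout the cell cycle from scattered genes with ordinary polyadenylated transcripts, and they enter chromatin at active genes, regulatory regions or sites of DNA damage in cells that do not divide. In some non-dividing cells a few cluster genes also give polyadenylated transcripts.

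Libraries held 23212183 to 28469813 gene counts. The labelled cell type was borne out by its markers: all 8 microglia and macrophage markers were at 1 CPM (a gene's counts scaled to a common library total) or more in every library, with a median of 1836 TPM ± 63.0 (SD, n = 4; TPM is the same after division by the gene's length). The medians were 16.6 TPM for 8 astrocyte markers and 2.15 for 8 oligodendrocyte lineage markers, with Mog at 0. They were 1.86 for 8 fibroblast and mural markers and 0.0561 for 8 neuronal markers, with Snap25 and Dcx at 0. Single markers stood well above these medians. The highest of each list, in the same order, were Clu (209 TPM), Cnp (98.8), Acta2 (84.1) and Map2 (2.52). Xist had 5864 to 9699 counts per library, but transcripts of the Y-linked genes Ddx3y, Kdm5d, Eif2s3y and Uty were also counted in every library, with 233 counts at the least, which goes against the labelled sex. Where a library has 0 counts for a gene, a level of up to 3 counts, or 0.105 to 0.129 CPM, is allowed by counting error alone.

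The stem-loop is printed first because it is the sequence that sets the replication-dependent genes apart. Transcripts of GENCODE M21 were matched to 75 of the 80 members, and the 16-base histone stem-loop consensus, searched on the transcript strand, was found in at least 1 transcript of 42 of the 60 matched cluster genes, of 1 of 10 replacement genes (H2ax) and of 1 of 5 germ-cell genes. Among protein-coding genes other than the members, 0.128% held a match. Below, the stem-loop is in capitals with its flanking bases in lower case.

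H1f2: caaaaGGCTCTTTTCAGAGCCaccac
H2bc8: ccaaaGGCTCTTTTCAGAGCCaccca
H4c9: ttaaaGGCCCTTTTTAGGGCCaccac
H4c8: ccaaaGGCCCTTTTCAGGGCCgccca
H4c2: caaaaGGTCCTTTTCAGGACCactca
H3c8: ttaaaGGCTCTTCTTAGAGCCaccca
H2ax: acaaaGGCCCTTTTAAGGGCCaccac

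The form carried by H1f2 and H2bc8 was the most common, with 24 genes of the H1, H2A, H2B and H3 families. The form of H4c8 was shared by 6 genes, all of family H4, and those of H4c9 and H4c2 by 2 H4 genes each. The forms of H3c8 and H2ax were each found in 1 member.

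The annotated transcripts differ in what follows the stem-loop, and levels are set beside these ends further below. In 23 cluster genes the annotated transcript stops within 100 bases after it, and in 19 the transcript goes on for more than 100 bases, by 840 bases in H1f2 and 330 in H4c9. In 3 genes, H2bc4, H2bc21 and H2bc23, a transcript over 1000 bases long was annotated with no match to the consensus, and 15 genes had only transcripts shorter than that with no match. Several of the 15 are annotated with little beyond the coding sequence, such as H3c10, with 411 bases of which 408 are coding. For these, neither a stem-loop nor a poly(A) signal downstream could be found, so a missing match does not show that the gene lacks them. A poly(A) signal (AATAAA or ATTAAA, transcript strand) lay in the last 50 bases of an annotated transcript in 12 of 60 cluster genes, 9 of 10 replacement genes and 78.1% of other protein-coding genes. Among cluster genes it was found in 8 of the 19 that extend past the stem-loop and in 2 of the 23 that stop at it, H4c8 and H2bc22. In H2bc22 the signal lay on another transcript, which had no match to the stem-loop. The signals of 3 of the more abundant cluster genes are shown beside those of H3f3b, H2az1 and H2ax, the replacement gene with a stem-loop, with the hexamer in capitals. For H2az1 the longer of 2 transcripts with a signal is used. Of the other abundant cluster genes, H2bc4 and H2bc8 had no match in their windows.

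H1f2: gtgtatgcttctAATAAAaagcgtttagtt
H4c9: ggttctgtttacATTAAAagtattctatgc
H2bc21: gttattattattAATAAAgttaccgattag
H3f3b: ataggccttacaAATAAActagtaagtttg
H2az1: ctctgcttactaATTAAAcagtgcatctgt
H2ax: tgggctaattttATTAAAggatcgtttggt

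In the cultured microglia most replication-dependent cluster genes were near or at the counting floor, whereas most replacement variants were well above it. Of the 62 cluster genes, 18 had 0 counts in every library, 38 had between 1 and 99 counts over all libraries together, and 6 had 100 or more. Only 5 cluster genes (H1f2, H2bc4, H2bc21, H4c9 and H2bc8) reached 1 CPM in every library, against 8 of the 12 replacement genes and 20.6% of all listed genes. The median was 0.226 TPM ± 0.1099 (SD, n = 4) over the cluster genes and 70.4 TPM ± 3.86 over the replacement genes. Within each library the cluster median lay below the replacement median, with a mean difference of -5.86 ± 0.0535 in log2(TPM + 1) that had the same sign in all 4. The exact permutation test by flipping signs, two-sided, gave p = 0.125; no lower p can be had from 4 values, so this design cannot reach 0.05. Because the cluster median is near 0, the size of this difference depends on the pseudocount. In bulk samples fewer cells of a kind, such as cells in S phase, and less RNA per cell cannot be told apart. Whether the libraries were made from poly(A)-selected RNA is not given in the sources used here, and the part of such a selection in these levels was not tested.

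Of the replacement genes, H3f3b, which encodes histone H3.3, was highest. It was at 864, 718.5, 776 and 738 TPM in replicates 1 to 4, which ranks it 156th by mean TPM of 21000 genes with a value. H3f3a, which encodes the same H3.3 protein, was at 263, 239, 260 and 268 TPM. H3f3b was above H3f3a in every library, by a ratio of 3.01 ± 0.218, and the values did not overlap. H3f3c was listed with 9 counts in all; GENCODE M21 annotates it as a processed pseudogene and 73.8% of its 50-base windows also occur in another gene, foremost H3f3a, so its counts are uncertain.

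H2A.Z replaces H2A in nucleosomes beside transcription start sites. H2az1 was at 334, 347, 341 and 346 TPM, the narrowest spread of any member tested (CV of CPM, 2.66%). H2az2 was at 80.4, 82.8, 75.95 and 76.4 TPM, and H2az1 exceeded it 4.34-fold ± 0.194. H2az1 was also above H3f3a, 1.33-fold on merged-exon length, but that order turned with coding length, to 0.716.

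Among the other H2A variants, Macroh2a1, whose protein carries a large macro domain, was at 82.7, 86.7, 84.9 and 82.4 TPM. It was above H2az2 in each of the 4 libraries, by a ratio of 1.07 ± 0.0391 with overlapping ranges; by coding length the ratio was 1.53 and the ranges did not overlap. The paralog Macroh2a2 was far lower, at 1.46, 1.78, 1.93 and 1.03 TPM, with a ratio of Macroh2a1 to Macroh2a2 of 57.4 ± 16.1, and of 179.8 ± 50.3 by coding length. H2ax, whose protein is phosphorylated at DNA breaks, was at 66.3, 64.9, 61.3 and 55.2 TPM. H2af-ps1 and H2af-ps2 had 0 counts in every library.

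Linker histones bind where DNA enters and leaves the nucleosome. The replacement linker H1f0, which accumulates in cells that have left the cycle, was at 107, 112, 107 and 101 TPM. H1f10 was at 7.18, 6.48, 5.35 and 4.64 TPM, and H1f0 exceeded it 18.5-fold ± 3.01, or 30.3-fold ± 4.92 by coding length. H1f2, a cluster gene for a somatic linker histone, stood above H1f0 in every library, at 203, 154, 169 and 135 TPM, by a ratio of 1.55 ± 0.253. With coding length the ratio was 1.08 and the values overlapped, so the order of H1f2 and H1f0 rests on the gene length used.

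**Figure D1:**
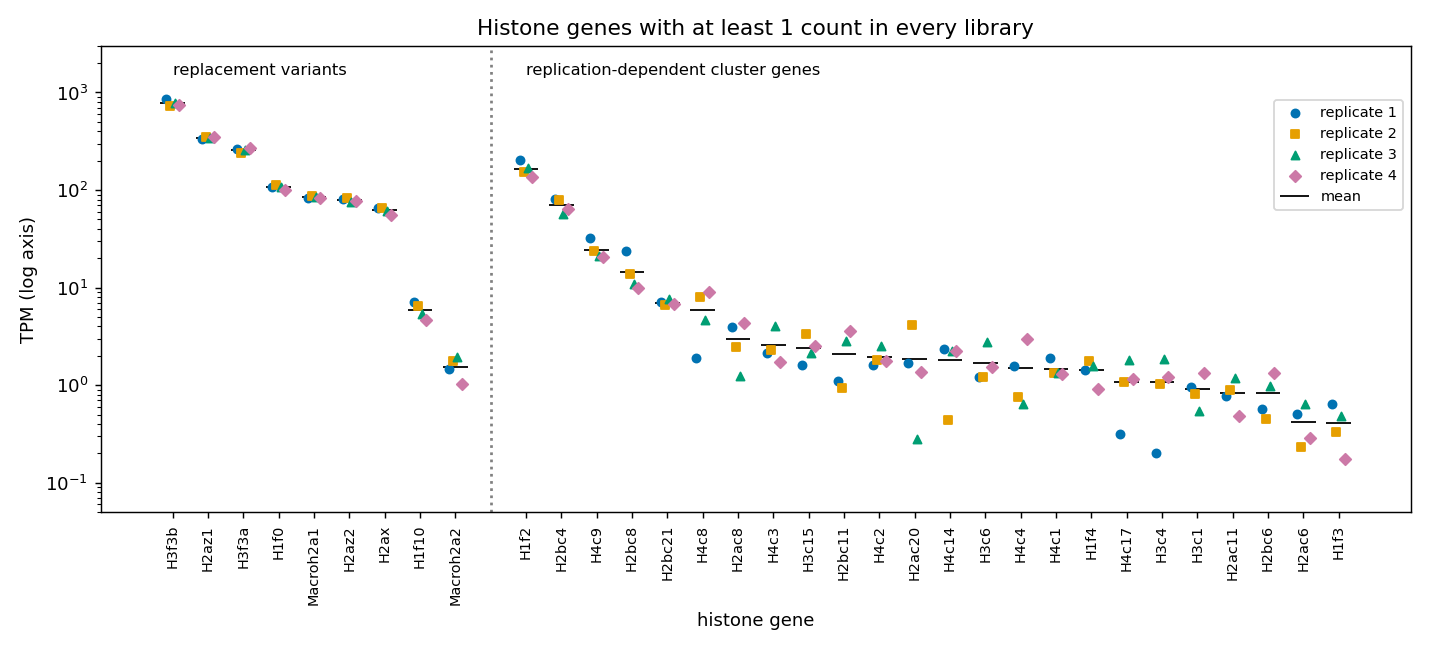
TPM on a log axis for the 33 histone genes with at least 1 count in every library (9 replacement, 24 cluster), with 1 symbol per library and a bar at the mean. Of the cluster genes, H1f2 and H2bc4 lie among the more abundant replacement genes, and most others lie between 0.1 and 10 TPM with wide scatter between libraries. The replacement genes H1f10 (mean 5.91 TPM) and Macroh2a2 (1.55 TPM) lie among these lower cluster genes.

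The counts on cluster genes were held by a few of them. H1f2 took 61.0% ± 2.77 of the counts on cluster genes, H1f2 and H2bc4 together took 80.4% ± 1.12, and with H2bc21, H4c9 and H2bc8 they took 91.1% ± 1.22. H2bc4, which encodes an H2B, was at 81.1, 79.1, 57.1 and 64.6 TPM, overlapping the levels of H2az2 and H2ax. By coding length H2az2 was above H2bc4 in 4 of 4 libraries without overlap, by a ratio of 1.58, while H2bc4 and H2ax still overlapped. H4c9 was at 32.6, 23.5, 21.3 and 20.4 TPM and was the highest of the 12 H4 genes. Of the other H2B genes, H2bc8 was at 23.6, 13.9, 11.01 and 9.90 TPM and H2bc21 at 7.06, 6.57, 7.68 and 6.83 TPM; with coding length H2bc8 was below H2bc21, at a ratio of 0.492.

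The next cluster genes were at single-digit levels. H4c8 was at 1.89, 7.93, 4.62 and 9.01 TPM, H2ac8 at 3.96, 2.44, 1.23 and 4.35 TPM and H4c3 at 2.16, 2.27, 4.06 and 1.72 TPM. The highest H3 cluster gene, H3c15, was at 1.61, 3.37, 2.13 and 2.54 TPM. These 4 genes had 62 to 84 counts each over all libraries, and their order differed from library to library. Of the remaining linker genes, H1f4 had 82 counts, H1f3 91, H1f5 4 and H1f1 3. H1f3 is annotated with a transcript of 7425 bases, so its counts come to only 0.410 TPM ± 0.204.

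Below these, counts scattered. H4c14, which shares the stem-loop form of H4c9, had 30, 5, 25 and 31 counts in replicates 1 to 4, and H4c4 had 14, 6, 5 and 29. H4c11 had 27, 5, 6 and 0 counts and H4c12 14, 6, 0 and 1, both highest in replicate 1. The H2A gene H2ac20 had 7, 15, 1 and 6 counts and the H2B gene H2bc11 4, 3, 9 and 14, so no library was highest throughout. Of the H3 genes, H3c6 had 8, 7, 16 and 11 counts and H3c4 2, 9, 16 and 13. H2ac22, H2bc15, H2bc3, H3c7 and H4c6 had 1 count each over all libraries. The genes at 0 counts were 9 of the H2A family (H2ac10, H2ac12, H2ac13, H2ac14, H2ac18, H2ac19, H2ac21, H2ac23 and H2ac24), 5 of H2B (H2bc12, H2bc13, H2bc18, H2bc23 and H2bc24) and 4 of H3 (H3c2, H3c10, H3c13 and H3c14). Neither the pseudogene H2ac14 nor H2bc24 was matched to a transcript. None of the H1 or H4 cluster genes was at 0 in every library.

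Summed by family, the balance of the classes was unlike. For H3, the replacement genes summed to 1033 TPM ± 71.4 and the 12 cluster genes to 7.84 ± 1.502, so that cluster genes made up 0.749% ± 0.0907 of the H3 total, or 0.206% ± 0.0163 by coding length. For H2A the sums were 569 ± 10.02 and 7.10 ± 2.11, and the cluster share was 1.23% ± 0.354, or 0.484% ± 0.0995 by coding length, from 17 cluster genes of which 9 had 0 counts. H1 was the exception, with 168 ± 28.8 TPM from cluster genes, nearly all H1f2, and 113 ± 5.44 from replacement genes, a cluster share of 59.5% ± 3.59; by coding length that share was 51.3% ± 3.88. H2B and H4 have no replacement gene under the symbol rule, and their cluster genes summed to 96.7 ± 14.7 and 44.8 ± 6.93 TPM. Each of these sums lay below the H3 total in every library. Histone genes outside the symbol rule are not in the family sums, and the shares depend on that. Of such H2A genes, H2aw was at 11.05 TPM, above the 7.10 summed over the H2A cluster genes, and H2aj at 135.5 TPM.

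**Figure D2:**
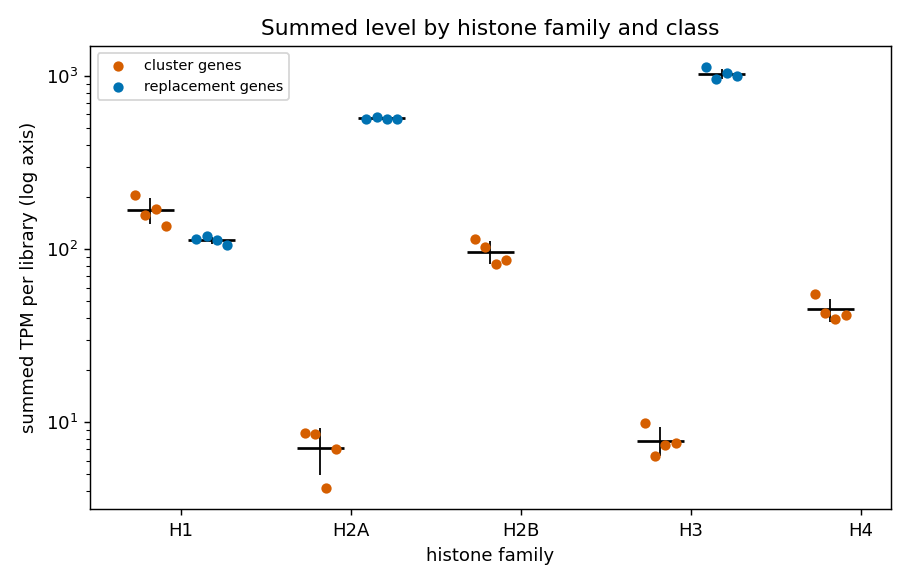
Summed TPM per library on a log axis for each histone family, split into cluster and replacement genes, with each point a library, the bar the mean and the line 1 SD (n = 4). Replacement genes lie far above cluster genes in H3 and H2A, the classes lie close together in H1, and H2B and H4 have cluster genes only.

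Over all members, 8.01% ± 0.790 (SD, n = 4) of histone counts fell on cluster genes, from 7.11% to 9.03% in a library. The share was 15.8% ± 1.53 by TPM on merged-exon length and 7.22% ± 0.656 by TPM on coding length, so its direction against the count share depends on the length used. The 6 germ-cell genes (H1f6, H1f7, H1f8, H1f9, H2ac1 and H2bc1), known from testis or oocytes, had 0 counts in every library.

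Level and annotated transcript end were set side by side for the cluster genes, a grouping made after the values were seen and given as a description. Genes with a transcript that stops at the stem-loop had a median of 0.292 TPM and at most 5.86 TPM (H4c8), and 0 of the 23 reached 1 CPM in every library. Genes with a transcript that extends past it had a median of 1.49 TPM, and 3 of the 19 (H1f2, H4c9 and H2bc8) reached 1 CPM in every library. The 19 genes of this kind held 73.8% ± 3.19 of the counts on cluster genes, and the 3 with a long transcript and no match to the consensus held 23.8% ± 2.72. Extended or long transcripts were also annotated for genes near or at 0, among them H3c14 and H2bc23 with 0 counts and H3c7 with 1 count. Annotated length is itself part of TPM, and its part in this pattern was not tested.

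**Figure D3:**
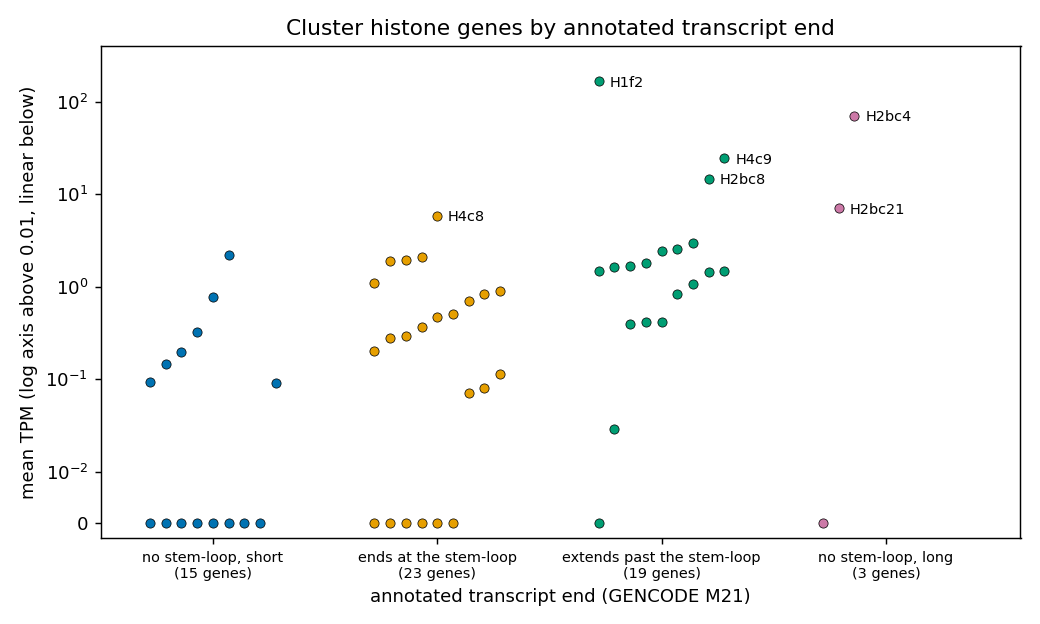
Mean TPM of the 60 cluster genes matched to GENCODE M21 (log axis above 0.01, linear below), by the end of their annotated transcripts, with each point a gene and genes at 5 TPM or more named. The genes above 10 TPM, H1f2, H2bc4, H4c9 and H2bc8, have transcripts that extend past the stem-loop or a long transcript without it.

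Cluster genes also share sequence with other annotated genes, among them other cluster genes, so some reads can fit several. Of the 18 cluster genes with 0 counts, 16 had a matched transcript, and in 15 of these more than 50% of the 50-base windows occurred in another annotated gene (median 89.8%). In the 38 genes with 1 to 99 counts this held for 16 (median 46.4%), and in the 6 with 100 or more it held for 0 (median 22.6%). For H2ac19 and H3c14 all windows were shared, foremost with Gm20634, which is not a member. Similar copies were not told apart from genes annotated over the same bases. In the 10 matched replacement genes the median was 6.41%. Reads aligned to several places made up 2.30% to 2.56% of those listed in each library, and reads overlapping several genes 1.99% to 2.31%. Reads of both kinds are not assigned to genes, so a count of 0 for such genes does not show that they are silent. The part of shared sequence in the class difference was not tested. H2bc6 and H1f4 also share windows with each other, and both are uncertain for that reason.

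Promoters were compared by short motifs, searched on both strands in the 300 bases from 250 before to 50 after each start (RefSeq, GRCm38.p6; 69 members matched; matches of different motifs could overlap). CCAAT, bound by NF-Y, was found in 47 of 55 cluster genes, 5 of 9 replacement genes and 41.1% of all genes in the table; only 3 of 11 H4 genes held it, against every other cluster gene in the table (5 H1, 16 H2A, 13 H2B and 10 H3). TATAAA was found in 32 of 55 cluster genes, 1 of 9 replacement genes and 15.7% of all genes. The octamer ATTTGCAT was found in 6 of 13 H2B genes and 5 of 16 H2A genes, in none of the H1, H3 and H4 cluster genes, in 1 of 9 replacement genes and in 1.97% of all genes. A match here is a description of the letters and says nothing of binding.

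The replicate libraries were then set against each other. Of the 80 members, 18 passed the abundance filter, 9 in each class, and 62 were too low to test. None of the 18 was found to vary between libraries by more than genes of like abundance. In edgeR's deviance test 0 had a Benjamini-Hochberg adjusted p under 0.05, against 143 of all 12879 genes tested (1.11%). An unadjusted p under 0.05 in that test was reached by 1 member, against 6.79% of all genes tested. DESeq2 marked 0 of the 54 members with counts as dispersion outliers, and 111 of all 22154 genes with counts. Under a common dispersion, with which 4.13% of all genes passed, 2 members passed, H2bc8 (edgeR adjusted p = 0.0095) and H2bc6 (edgeR adjusted p = 0.0447).

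The member nearest the threshold was H1f2, at 92.5, 71.6, 78.5 and 63.0 CPM in replicates 1 to 4 (edgeR unadjusted p = 0.0033, adjusted p = 0.158, and 0.139 to 0.964 over the 7 alternatives). Replicate 1 was highest and replicate 4 lowest, and the highest was 1.47 times the lowest. H2bc8 was at 4.26, 2.56, 2.03 and 1.83 CPM, again highest in replicate 1. H2bc4 was at 27.4, 27.2, 19.6 and 22.3 CPM, with replicates 1 and 2 close together and above the others, and H4c9 was at 6.92, 5.08, 4.61 and 4.43 CPM. H2bc6 ran differently, at 0.740, 0.597, 1.29 and 1.76 CPM, and H2bc21 was even, at 5.41, 5.12, 5.99 and 5.34 CPM.

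Summed over the 62 cluster genes, the level was 148, 121, 122 and 108 CPM. Without H1f2 it was 55.6, 49.7, 43.9 and 45.1 CPM, still highest in replicate 1. Replacement genes summed to 1493, 1384, 1442 and 1412 CPM, and H3f3b (752, 636, 688 and 656 CPM) was the largest part of that. Macroh2a1 varied by a CV of 2.88% and H2az2 by 3.91%.

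**Figure D4:**
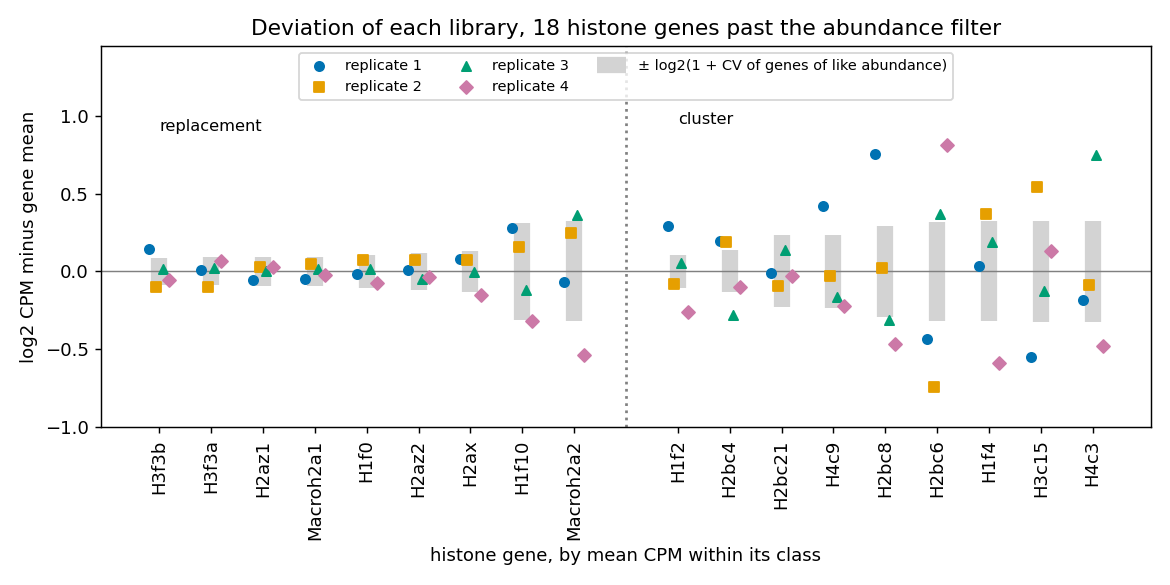
Deviation of log2 CPM from the gene's mean in each library for the 18 histone genes past the abundance filter, ordered by mean CPM within class; grey bars show the variation of genes of like abundance beyond counting noise. Abundant replacement genes lie within about 0.15 of 0, and replicate 1 is highest for H1f2, H2bc4, H4c9 and H2bc8.

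Other genes moved between the libraries too. Replicate 1 had the highest summed level of 16 immediate-early genes (2353 CPM against 1400 to 1707), of which 12 passed the test and 15 were highest there. It also had the highest sum of 24 S-phase genes (831 CPM against 743 to 760), of which 17 were highest there and 0 passed (1 at an unadjusted p under 0.05). The sum of 16 G2 and mitosis genes was 261, 198, 177 and 224 CPM, and 11 were highest in replicate 1. The proliferation marker Mki67 (61.3, 39.4, 33.6 and 52.4 CPM, edgeR adjusted p = 0.00018) and the spindle gene Nusap1 passed, and 3 of the 16 had an edgeR unadjusted p under 0.05. Astrocyte markers summed to 284 CPM in replicate 1 and 391 to 482 CPM elsewhere. All 7 tested were lowest in replicate 1, and 3 of them passed. Over all 12879 genes tested, 24.04% were highest in replicate 1, and 4544 genes were lowest there, more than in any other library. Of all genes tested, 1.11% passed and 6.79% had an edgeR unadjusted p under 0.05. The part of these differences in the values of the cluster genes was not tested.

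Genes that make and place histones were present, though few were abundant. In the list for transcription and 3′ end processing of replication-dependent histone mRNA, 16 of 17 genes were at 1 CPM or more in every library, with a median of 28.5 TPM ± 1.44, and 0 of 16 tested passed (2 at an unadjusted p under 0.05). The RNA helicase gene Upf1 (92.0 TPM ± 3.68) and Srrt (72.6 ± 1.94), of the cap-binding machinery, were highest, followed by Ncbp2 (61.3 ± 3.25) and Lsm10 (57.9 ± 3.64), a subunit of the U7 particle that cleaves histone pre-mRNA. Lsm11, its partner, was at 6.94 ± 0.387 and Zfp473 at 0.139 ± 0.0338. Chosen after their values were seen, the stem-loop binding protein gene Slbp was at 26.7 ± 2.74 TPM and the histone transcription factor gene Npat at 9.08 ± 1.80.

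Histone chaperones of both kinds were detected throughout. All 11 replication-coupled genes were at 1 CPM or more in every library, with a median of 22.7 TPM ± 3.80 and 0 that passed the test (0 at an unadjusted p under 0.05). Rbbp7 (124 ± 5.10) and Rbbp4 (76.9 ± 1.36), which act in several chromatin complexes, were highest, and Chaf1b (7.25 ± 0.567), of the CAF-1 complex, and Tonsl (5.37 ± 0.621) lowest. The 25 genes that place or remodel replacement histones had a median of 37.6 TPM ± 1.12. Nap1l1 (132 ± 9.90), Nap1l4 (120 ± 3.67), Ssrp1 (105 ± 6.43), of the FACT complex, and Anp32e (97.7 ± 3.96), which removes H2A.Z, were highest, and Asf1a (6.29 ± 0.656) and Srcap (3.45 ± 0.453) lowest. In that list 1 of 25 genes passed the spread test, against 1.11% of all genes tested. An edgeR unadjusted p under 0.05 was reached by 3 of the 25, against 6.79% of all genes tested. The gene that passed was Atrx, a remodeller that works with Daxx in placing H3.3. It was at 114, 96.6, 70.7 and 99.3 CPM (edgeR adjusted p = 0.00839), lowest in replicate 3.

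The S-phase list gives the setting for the cluster genes. All 24 genes were at 1 CPM or more in every library, with a median of 13.5 TPM ± 0.994. Pcna, the sliding clamp of DNA polymerase, was at 152 ± 10.1 TPM, the helicase genes Mcm6 and Mcm3 at 83.0 ± 3.95 and 72.6 ± 5.78, and E2f1 at 50.35 ± 2.27. Cdc6 (3.54 ± 0.253) and Hells (3.47 ± 0.760) were lowest. The G2 and mitosis list had a median of 8.77 TPM ± 0.432. The median of the cluster histone genes, 0.226 TPM, lay below both.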

How the data were processed

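Per the labels' protocols, cells were sorted into TRIzol LS, RNA was purified on columns with DNase, and the NEBNext Ultra II kit was used for the libraries. For each symbol the authors deposited a raw count of reads, a whole number. HTSeq 0.11.2, STAR 2.7.10a and SAMtools 1.16.1 are named, with GRCm39, per the submitters' processing notes; not given in the sources used here are annotation, strand setting and overlap mode. Summary lines held 11.8% ± 0.159 of reads and were left out, and 0 columns belonged to no sample. TPM used merged exon lengths of GENCODE M21 (99.4% of counts matched; members by symbol or RefSeq gene ID). It is on GRCm38, another build than the counts, so no coordinates are given. Sequences are from GENCODE M21 transcripts, which match the current symbols through RefSeq. Spread was tested in edgeR 4.0.16 (R 4.3.3), with 1 mean per gene, TMM, filterByExpr, trended dispersion, the deviance against chi-square with 3 degrees of freedom and Benjamini-Hochberg adjustment over all genes. The script was tested on simulated data. DESeq2 1.42.0 was an alternative. Members, lists and the rule for naming genes (any member, foremost replacement genes and the 12 highest cluster genes; the 4 highest and 2 lowest of each list, and those past the spread test) were chosen with earlier results of these data known.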

Additional observations from a re-analysis of the deposited data

Results flagged for a closer look

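The gap between 1 library and its nearest neighbour, relative to the whole range, was taken in 40 sets of 4 values. These were members with at least 10 counts in total, and the sums of both classes. In 4 sets 1 library stood apart. Chance gives about 1 in 20 for normally distributed values, a rate that need not hold for few counts or zeros, so 4 is not read as an excess. H3c11 was at 0.333 CPM in replicate 1, from 9 counts, against 0 to 0.0351 CPM elsewhere. H3c3 was at 0.370 CPM in replicate 1, from 10 counts, against 0 in the others. H4c1 was at 0.296 CPM in replicate 1, from 8 counts, against 0.211 to 0.215 CPM, from 5 to 6 counts. H4c14 was lowest in replicate 2, at 0.213 CPM from 5 counts, against 1.08 to 1.11 CPM.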

How the results depend on the processing

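The cluster minus replacement difference kept its sign under all alternatives run. Without a single replicate it was -5.87 to -5.83, and changing the pseudocount gave -7.87 (at 0.1) and -2.97 (at 10). The share of histone counts on cluster genes, 8.01%, was 15.8% by TPM, 7.22% by TPM on coding length (added after seeing the data), 9.64% with H2ax counted as a cluster gene and 7.67% to 8.30% without a single replicate. The count of histone genes past the spread test, 0, was 2 with a common dispersion and 0 under the others; that of all genes, 143, was 532 with a common dispersion and 47 to 118 without a single replicate, lowest without replicate 1 (47) and replicate 3 (52). Coding length from GENCODE M21, chosen after seeing the data, changed 22 of the members' mean levels by more than their SD, H3f3b to 1758 TPM and H1f2 to 126 TPM. Coding length from a protein table was not run, as none was used here. No paired analysis was possible because the libraries form 1 group. Counts under 100 limit what can be said of most cluster genes.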

Other observations

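Some histone genes fall outside the symbol rule and were chosen after their values were seen. H2aj, which encodes the variant H2A.J, was at 64.1, 90.9, 73.7 and 65.7 CPM in replicates 1 to 4, with a mean of 135.5 TPM ± 22.05 (SD, n = 4); its spread did not pass the test (edgeR adjusted p = 0.267). H2aw was at 11.05 TPM ± 1.24, H2bu2 at 4.56 ± 0.899 and H4f16 at 2.20 ± 0.339. Cenpa, the centromeric H3 variant, was at 7.11 TPM ± 0.682, and Macroh2a3 had at most 3 counts in a library. H3f3aos, named as an opposite-strand gene of H3f3a, was at 0.397 CPM ± 0.215 beside 268 CPM for H3f3a.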
